A study of Mus musculus with 21 samples.

Results

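The protamines Prm1, Prm2 and Prm3 and the transition proteins Tnp1 and Tnp2 were followed from sperm to the blastocyst. These 5 genes were chosen by name out of 10917 genes that had at least 1 transcript in the merged long-read annotation of the series. Each merged transcript was given to the gene of the GENCODE mouse annotation whose exons it overlapped most on the same strand, and a gene's level was the summed TPM of its transcripts (TPM is a share of a library's RNA, corrected for transcript length). Each of the 5 genes received exactly 1 merged transcript, so gene and transcript levels were the same.

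Short-read libraries came from 7 stages with 2 replicates each, and 1 long-read library per stage came from both replicates' cDNA mixed together. Sperm were of the strain DBA/2J in the sample titles, whereas the collection protocol calls the males DBA/2N, and were taken from the epididymis. Oocytes came from superovulated C57/BL6J females aged 3 to 5 weeks at 20 h after human chorionic gonadotropin (hCG). Embryos were from DBA/2J males crossed with C57/BL6J females and were cultured to the 1-cell (24 to 26 h after hCG), 2-cell (46 to 48 h), 4-cell (54 to 58 h), 8-cell (68 to 70 h) and blastocyst (94 to 96 h) stages. The labels name no mutation, and no treatment other than the hormones given to the females. Every library was made from pooled cells whose cDNA had been amplified, and the labels do not say how many males or females a pool came from. The tests below therefore measure the spread between the 2 pools of a stage.

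In elongating spermatids most histones are replaced, first by transition proteins and then by protamines, and the haploid genome is packed into a small, transcriptionally silent sperm head. The mRNAs of these proteins are made in round spermatids, stored without being translated, and used later. After fertilisation the oocyte removes the protamines from the paternal genome and loads maternal histones, and sperm RNA enters the oocyte with the sperm. Prm1 and Prm2 encode the DNA-packing protamines of mouse sperm. Tnp1 and Tnp2 encode the transition proteins that act before them. Prm3 lies in the same gene cluster but encodes an acidic protein.

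The gene cluster lies on chromosome 16 of mm10 (GRCm38), where the main annotated transcripts of Tnp2, Prm3, Prm2 and Prm1 lie in this order on the minus strand within 8951 bases, at chr16:10787936-10796886. The transcript of Prm1 spans chr16:10796326-10796886 and that of Prm2 spans chr16:10791380-10792105. Prm3 spans chr16:10790505-10790914 as a single exon, and Tnp2 spans chr16:10787936-10788660. Tnp1 lies alone on chromosome 1, at chr1:73015074-73015909, also on the minus strand. These main transcripts, apart from that of Prm3, each have a single intron, of 92 bases in Prm1, 105 in Prm2, 399 in Tnp1 and 171 in Tnp2.

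The 120 bases before each RefSeq start site (assembly GRCm38.p6) are shown because the 5 genes were all high in the same libraries. Capitals mark matches, on either strand, to TGANNTCA, the outer letters of a cyclic-AMP response element, and to TATAA and TATATA, forms of the TATA box, which overlap one another in 2 of the sequences.
Prm1, chr16:10796824-10796943: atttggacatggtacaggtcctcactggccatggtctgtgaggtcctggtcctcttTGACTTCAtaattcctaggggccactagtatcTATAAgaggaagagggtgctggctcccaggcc
Prm2, chr16:10792106-10792225: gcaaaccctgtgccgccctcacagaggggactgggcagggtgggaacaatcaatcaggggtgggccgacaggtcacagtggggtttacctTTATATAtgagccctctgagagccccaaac
Prm3, chr16:10790915-10791034: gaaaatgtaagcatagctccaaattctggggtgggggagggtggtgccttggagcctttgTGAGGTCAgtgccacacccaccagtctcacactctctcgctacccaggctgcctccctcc
Tnp1, chr1:73015900-73016019: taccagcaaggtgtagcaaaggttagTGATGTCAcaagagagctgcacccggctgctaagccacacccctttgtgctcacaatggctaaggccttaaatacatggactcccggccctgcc
Tnp2, chr16:10788656-10788775: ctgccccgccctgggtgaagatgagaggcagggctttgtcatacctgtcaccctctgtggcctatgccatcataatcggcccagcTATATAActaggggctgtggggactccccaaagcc

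In the 250 bases before the start, TGANNTCA was found in 3 of the 5 genes (Prm1, Prm3 and Tnp1) and in 11.9% of 32851 mouse promoters. TATAA was found in 3 members (Prm1, Prm2 and Tnp2) against 22.8% of promoters, and TATATA in 2 members (Prm2 and Tnp2) against 5.25%. The full palindrome TGACGTCA occurred in 0 members and in 1.55% of promoters. CCAAT occurred in 1 member, Prm3, and in 33.8% of promoters. The members therefore did not share any of these 5 letter patterns across the whole set. Their GC content over the 250 bases lay between 49.2% in Tnp1 and 56.4% in Prm3, around the median of 52.4% over all promoters.

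The encoded proteins are short and differ in charge. Read from the annotated coding sequences, Prm1 encodes 51 residues, of which 54.9% are arginine and 17.6% cysteine, with no acidic residue. Prm2 encodes a precursor of 107 residues with 35.5% arginine and 15.0% histidine. Tnp1 encodes 55 residues with 20.0% arginine and 18.2% lysine and no cysteine, and Tnp2 encodes 117 residues with 13.7% arginine, 18.8% serine and 10.3% histidine. Prm3 stands apart from the other four genes, since only 1.98% of its 101 residues are arginine while 29.7% are aspartate or glutamate, including an unbroken run of 14 glutamates. Counting arginine and lysine minus aspartate and glutamate, the balance was 31 in Prm1, 33 in Prm2, 19 in Tnp1 and 25 in Tnp2, but -21 in Prm3.

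**Figure D1:**
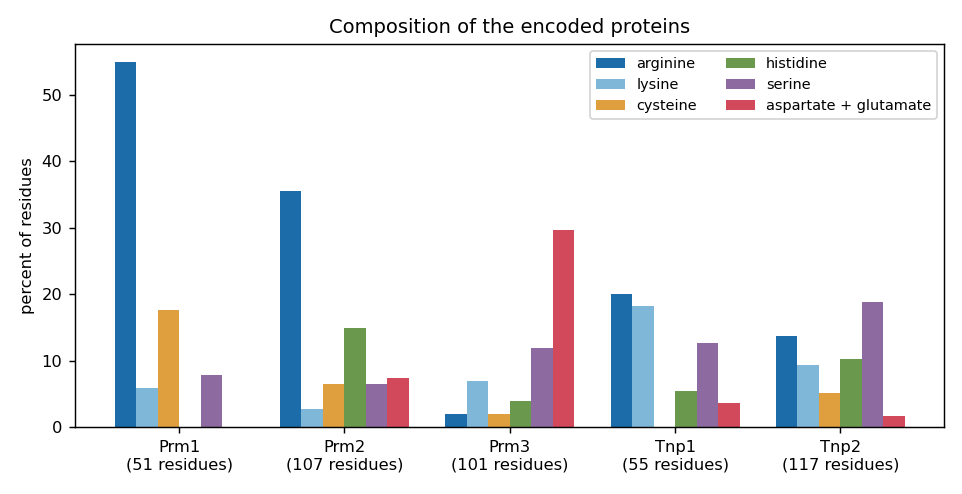
Share of residues (percent, vertical axis) of 6 kinds in the protein encoded by each gene, read from the annotated coding sequence. The arginine bar falls from 54.9% in Prm1 to 1.98% in Prm3, whose tallest bar is aspartate plus glutamate at 29.7%.

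Between 6972 and 9822 genes reached 1 TPM in the libraries for which this was smallest and largest, an oocyte and a 2-cell library. The tissue labels were checked against marker lists. All 14 sperm markers with a transcript were higher in sperm than in oocytes and all 8 oocyte markers were lower (limma on log2(TPM + 1), 10735 genes tested, Benjamini-Hochberg adjusted p under 0.05). Of all genes tested, 36.2% were called higher and 17.4% lower in sperm. Smcp, Spata3, Spata18, Akap3, Akap4, Pgk2, Spem1 and Tssk2 stayed under 1 TPM in every library outside sperm. They passed the filter of 1 TPM in at least 2 libraries only through sperm, so their calls add no support of their own. The 8 blastocyst markers summed to between 10567 and 37665 TPM in blastocysts against at most 951 in any other library. The 5 markers of the 2-cell stage were highest in a 2-cell library, with a sum of 497 TPM, but summed to only 20.9 TPM in the other 2-cell library. The study states how many reads each library was sequenced to, but the deposited TPM hold no read counts, so the number of reads behind a TPM is unknown and a gene listed at 0 is given no limit.

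In sperm all 5 genes were well above the 1 TPM used as the filter, from 32.7 to 9070 TPM. Prm2 stood at 9070 TPM in sperm replicate 1 and at 869 TPM in replicate 2. Prm1 stood at 1842 and 6156 TPM, and Tnp2 at 2448 and 6336 TPM. These 3 genes were among the most abundant of all, ranking 8th and 135th (Prm2), 52nd and 12th (Prm1) and 36th and 11th (Tnp2) of the 10917 genes in replicates 1 and 2. Prm3 was lower, at 242 and 45.0 TPM, and Tnp1 lowest, at 156 and 32.7 TPM, which placed Tnp1 643rd and 2904th.

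Together the 5 genes held 1.38% of all TPM in sperm replicate 1 and 1.34% in replicate 2, so that their sum was almost the same although its parts were not. In replicate 1 Prm2 was 10.4 times, Prm3 5.39 times and Tnp1 4.76 times as high as in replicate 2. In replicate 2, in contrast, Prm1 was 3.34 times and Tnp2 2.59 times as high as in replicate 1. The ratio of Prm1 to Prm2 was therefore 0.203 in one library and 7.08 in the other, on the TPM scale. Among 5728 genes with a mean sperm level of at least 10 TPM, the median size of the difference between the libraries was 1.54 on the log2(TPM + 1) scale. The differences of Prm1 and Tnp2, 1.74 and 1.37, lay near that median, and the difference of Prm2, 3.38, exceeded that of 94.9% of these genes.

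On the log2(TPM + 1) scale the order of the sperm levels was Tnp2, 11.94 ± 0.97 (SD, n = 2), Prm1, 11.72 ± 1.23, Prm2, 11.46 ± 2.39, Prm3, 6.73 ± 1.70, and Tnp1, 6.18 ± 1.57. Because the genes share their libraries, neighbours in this order were also compared within each library. Tnp2 exceeded Prm1 by 0.41 and 0.04 in replicates 1 and 2, a mean of 0.23 ± 0.26 (SD, n = 2) that did not exceed its spread. Prm1 and Prm2 changed places between the libraries. Prm3 stood above Tnp1 by 0.63 and 0.45, a mean of 0.54 ± 0.13, which exceeded its spread. The 3 higher genes did not overlap the 2 lower ones in either library.

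**Figure D2:**
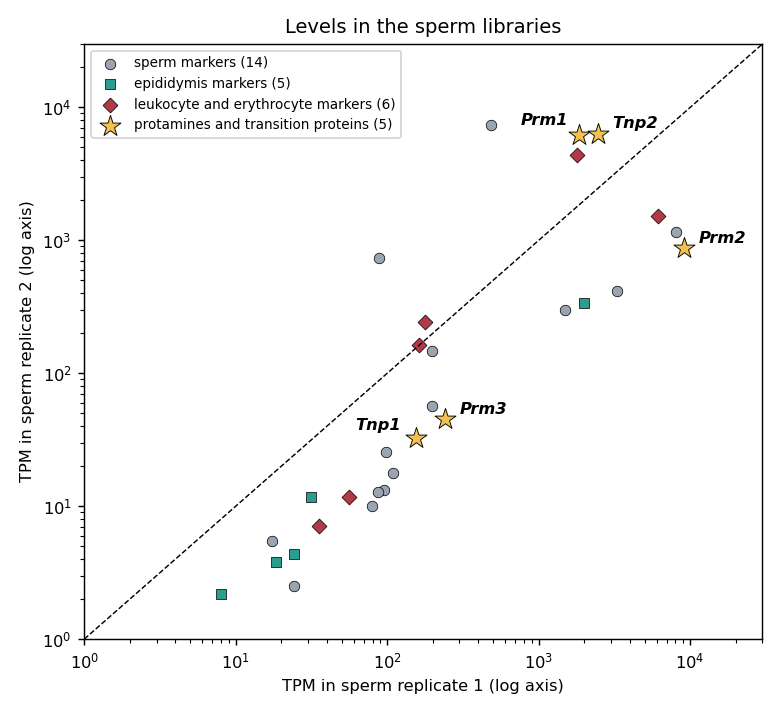
TPM in sperm replicate 1 (horizontal, log axis) against sperm replicate 2 (vertical, log axis) for the 5 genes (stars) and for markers of sperm, epididymis and blood cells, with the dashed line at equal levels. Prm2, Prm3 and Tnp1 lie below the line with 12 of the 14 sperm markers and all 5 epididymis markers, whereas Prm1 and Tnp2 lie above it.

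Markers of other cells were also present in the sperm libraries and moved between them. The 5 measured epididymis markers summed to 2088 TPM in replicate 1 and 357 TPM in replicate 2, led by Crisp1, a secreted epididymal protein, at 2006 and 335 TPM. The 6 measured leukocyte and erythrocyte markers summed to 6328 to 8384 TPM, with Lyz2, the lysozyme of macrophages and other myeloid cells, at 6151 and 1519 TPM. Ptprc, the pan-leukocyte CD45, stood at 35.2 and 7.07 TPM. Hba-a1, an alpha globin, went the other way at 1803 and 4384 TPM, and reached 368 TPM in 2-cell replicate 2. The epididymis marker Defb42 stood at 24.4 and 4.33 TPM in sperm but at 45.7 and 41.1 TPM in the 4-cell libraries. The other measured epididymis markers were highest in sperm. Sums of the 14 sperm markers were 14386 and 10281 TPM. Markers of early male germ cells, which precede the protamine stage, summed to between 73.1 and 161 TPM in sperm against 198 and 1463 TPM in oocytes, with 4 of 6 measured. Dazl, which oocytes also express, made up most of the oocyte sums, at 166 and 1423 TPM against 1.13 and 2.41 TPM in sperm. The markers Sycp1 and Ddx4 stood higher in sperm without being called, at 143 and 60.7 TPM against 20.3 and 33.7 TPM for Sycp1 and at 12.9 and 8.33 TPM against 3.39 and 3.18 TPM for Ddx4. The only measured cumulus marker of 8, Ptgs2, was at 5.41 and 2.50 TPM in sperm and at most 0.481 TPM elsewhere. The part of these cells in the levels of the protamine genes was not tested.

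Outside sperm the same RNAs were at or near 0. Over the 12 oocyte and embryo libraries the highest value was 15.2 TPM for Prm2, 5.96 TPM for Prm1, 5.32 TPM for Tnp1, 4.85 TPM for Tnp2 and 4.44 TPM for Prm3. Their medians were 1.13 TPM for Prm2, 1.02 TPM for Prm1, 0 TPM for Tnp1, 0.371 TPM for Tnp2 and 1.59 TPM for Prm3. Tnp1 was listed at 0 in 8 of the 12 libraries, Prm1 and Tnp2 in 3 each, Prm2 in 1 and Prm3 in none. For each of the 5 genes, the lower sperm library stood above the highest of the 12 other libraries. The share of all genes that do so was not computed, so this is a description only.

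**Figure D3:**
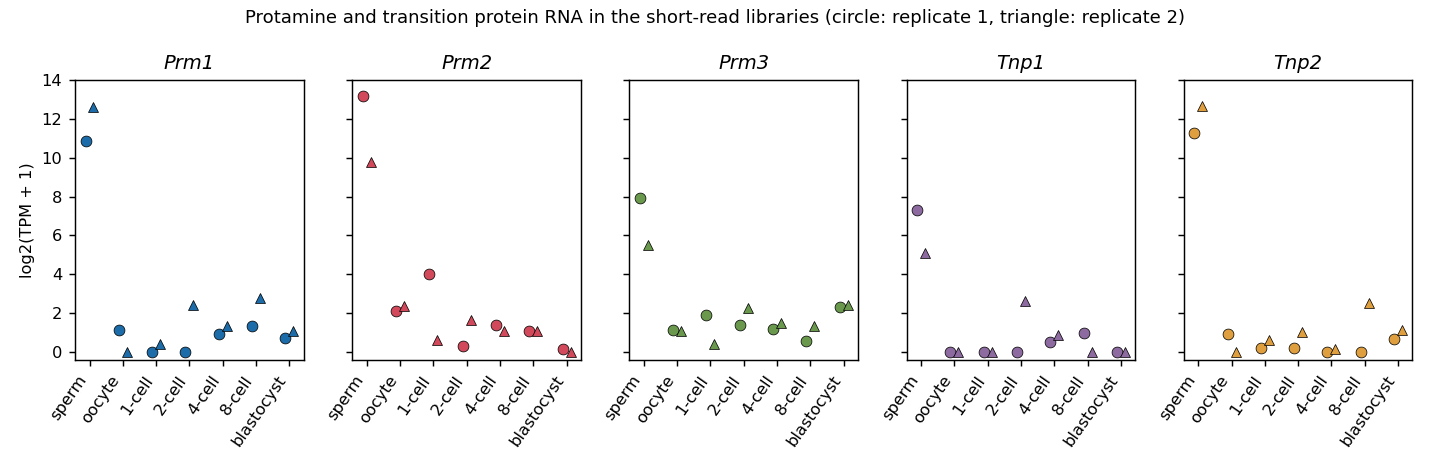
Level of each gene on the log2(TPM + 1) scale (vertical axis) in the 14 short-read libraries by stage, 1 point per library. Sperm points lie between 5.08 (Tnp1, replicate 2) and 13.15 (Prm2, replicate 1). They stand above every other point of the same gene, a pattern not counted over all genes.

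The first question was whether sperm and oocyte, the 2 gametes, differed. All 5 genes were higher in sperm, in a fit over all 10735 tested genes in which 36.2% of genes were called higher in sperm. Tnp2 was higher by 11.47 ± 0.81 (SE, n = 2 against 2) on the log2(TPM + 1) scale (limma, adjusted p = 6.23e-08), the 2nd largest of the differences towards sperm (genes lower in sperm are not ranked here). Prm1 was higher by 11.15 ± 0.87 (adjusted p = 1.11e-07) and ranked 5th in that direction. Prm2, which was listed in both oocyte libraries, was higher by 9.20 ± 1.06 (adjusted p = 3.88e-06) and ranked 32nd. Prm3 was higher by 5.61 ± 0.79 (adjusted p = 2.62e-05). Tnp1 was called as well (adjusted p = 1.13e-05), but it was listed at 0 in both oocyte libraries and is given no difference. Outside sperm it reached 1 TPM in 1 of the 12 libraries, so it passed the filter of 2 libraries only through sperm. Its calls towards sperm therefore add no support of their own. The merged transcripts of Prm1, Prm3, Tnp1 and Tnp2 had long-read models in the sperm pool alone, so these genes entered the annotation through sperm. The median difference over all tested genes was 0.90, so the members' values stand above a general shift of that size towards sperm. Of all calls 67.6% were higher in sperm, against 49.8% after quantile normalization, under which all 5 members were still called. At transcript level, where 29.3% of 21568 tested transcripts were called higher in sperm, the 5 member transcripts were all called.

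Against the 1-cell embryo, all 5 genes were again higher in sperm, where 31.3% of tested genes were called higher. This comparison shares its sperm libraries with the one before. Tnp2 was higher by 11.50 ± 0.81 (limma, adjusted p = 6.31e-08), Prm1 by 11.50 ± 0.87 (adjusted p = 9.53e-08), Prm2 by 9.12 ± 1.06 (adjusted p = 4.51e-06) and Prm3 by 5.55 ± 0.79 (adjusted p = 3.20e-05). Tnp1 was listed at 0 in both 1-cell libraries.

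Against the mean of the other 6 stages, a contrast in which 23.8% of genes were called higher in sperm, all 5 genes were called. The differences were 11.30 ± 0.62 for Tnp2, 10.70 ± 0.66 for Prm1, 10.12 ± 0.81 for Prm2, 5.76 ± 0.61 for Tnp1 and 5.25 ± 0.60 for Prm3. Tnp1 was listed at 0 in 8 of the 12 other libraries, so its value depends on the pseudocount. It ran from 4.66 to 8.25 over the alternative settings run. An exact permutation test set the 2 sperm libraries against the 12 others over all 91 choices. This permutation test was 2-sided, was run once for each of the 5 genes, and gave p = 0.011 for each, the smallest value that this design allows. The 12 others are 2 pools of each of 6 stages and so not exchangeable, which makes this p descriptive only. Levels are shares of a library, so fewer RNA molecules per cell and fewer cells of a kind cannot be told apart in these pooled samples.

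The long reads gave the structure of the sperm RNAs. In the sperm pool, the main models of Prm1, Prm2, Tnp1 and Tnp2 were spliced at the annotated intron and held both the annotated start and stop codons, and so did the single-exon model of Prm3. The models of Prm1, Prm2 and Tnp1 began exactly at the RefSeq start site and that of Prm3 began 1 base inside it. For Prm1 this lay 63 bases inside the longer first exon of the GENCODE transcript. The model of Tnp2 differed, since it began 176 bases before the RefSeq start, and 76.4% of its 725 bases lay inside annotated exons. It therefore covers the whole 120-base upstream sequence of Tnp2 printed above, including the TATA-like match. The models ended within 9 bases of the annotated 3′ ends. The signal AATAAA was present in the last 40 bases of the annotated transcripts of Prm1, Prm2, Prm3 and Tnp1, but not of Tnp2, and in 39.3% of 58791 protein-coding transcripts. No merged transcript on the opposite strand overlapped a member's merged transcript. In the annotation, 1700027A15Rik shares 40 exon bases with the 418-base merged transcript of Tnp1 on the other strand, and over those bases reads of the 2 genes cannot be told apart without strand. The antisense genes in the span of Prm1, Gm10343 and Gm46563, share 0 exon bases with its merged transcript.

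**Figure D4:**
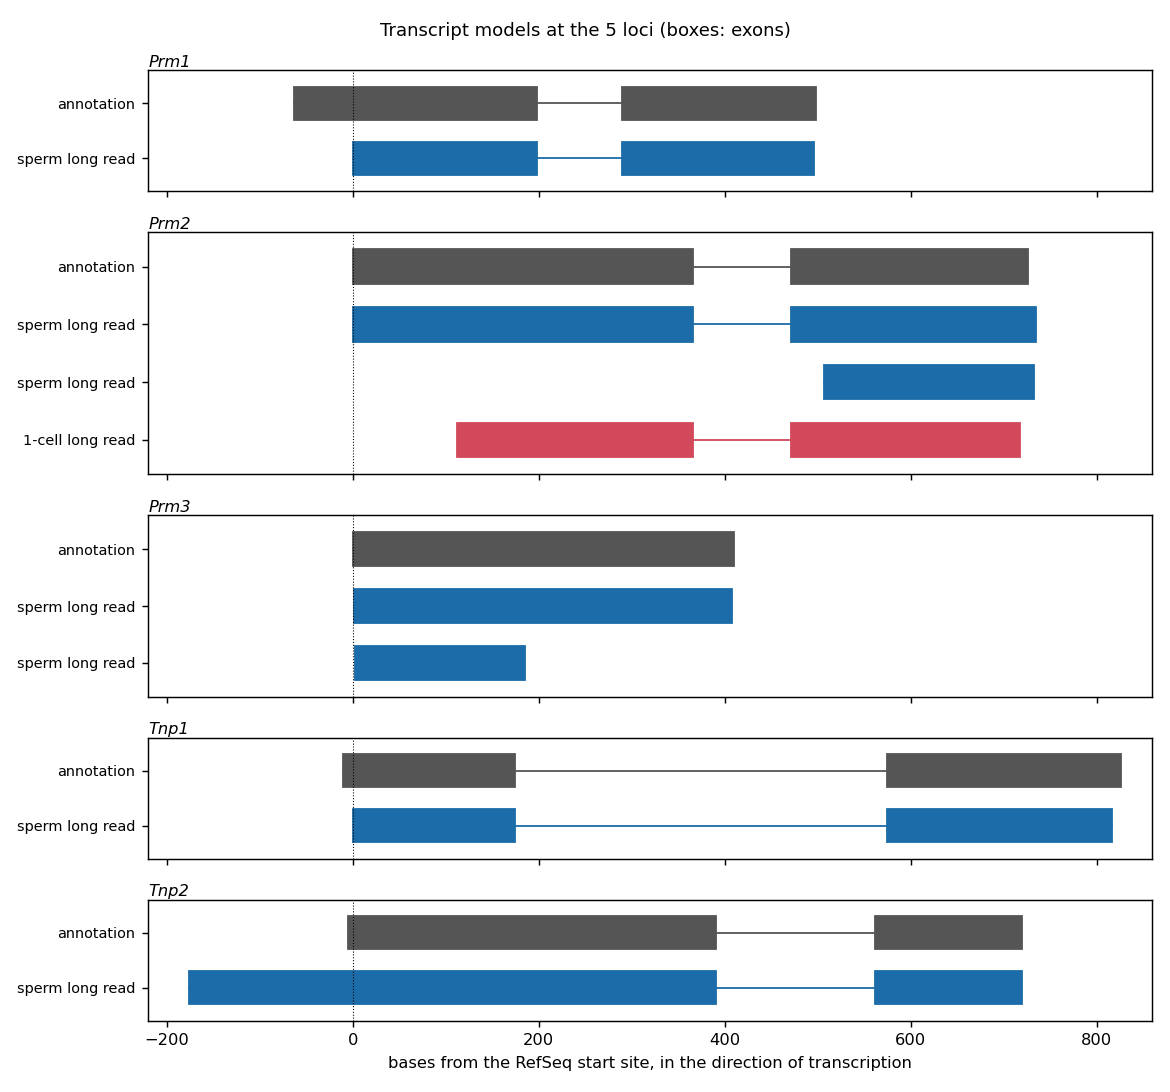
Exons (boxes) and introns (lines) of the main annotated transcript and of each long-read model at the 5 genes, with bases from the RefSeq start site on the horizontal axis. The sperm model of Tnp2 starts 176 bases before that site, and the 1-cell model of Prm2 starts 112 bases after it.

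Shorter models were present for 2 genes in the sperm pool. For Prm2, a single-exon model of 226 bases covered the 3′ part of the second exon and lacked the start codon. For Prm3, a model of 183 bases started near the usual start but ended at coding base 160 of 306, without the stop codon. It ended inside the run of glutamate codons, shown here as chr16:10790715-10790744 on the minus strand with the bases after the model's end in capitals.
Prm3 around the end of the short model: aggaggaggacgaggAAGAGGAGGAGGAGG
In the next 20 bases of the transcript, 10 were A. Quantified on the sperm pool's own models, the short Prm2 model held 4.10% of Prm2 TPM in sperm replicate 1 (335 of 335 plus 7830 TPM) and 27.0% in replicate 2 (321 of 321 plus 867 TPM). By this split the short Prm2 model was about level between the libraries, while the full model carried the difference. For Prm3 the short model held 16.1% and 23.5%. Both short models lie wholly inside the full ones, so their reads also fit the full models and each split is an estimate.

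Between oocyte and 1-cell embryo, the step at which the sperm enters, 0 of the 5 genes were called by limma, and 0 had an unadjusted p under 0.05. Only 0.14% of genes were called at this step. Prm2 stood at 3.40 and 4.16 TPM in oocytes, and at 15.2 and 0.576 TPM in 1-cell embryos. The oocyte values lay close together, whereas the 1-cell values lay on either side of them. The difference was 0.08 ± 1.06 on the log2(TPM + 1) scale (limma, adjusted p = 1). Without 1-cell replicate 1 it was -1.60, also not called.

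Prm3 followed the same order, at 1.19 and 1.15 TPM in oocytes and 2.76 and 0.353 TPM in 1-cell embryos. Prm1 was listed at 1.21 and 0 TPM in oocytes and at 0 and 0.358 TPM in 1-cell embryos. Tnp2 was at 0.939 and 0 TPM and then at 0.185 and 0.557 TPM. So the library with the highest Prm2 outside sperm had Prm1 and Tnp1 listed at 0.

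The 1-cell long-read pool held a spliced Prm2 model, and no other pool outside sperm held a model at any of the 5 genes. It used the same 105-base intron as the sperm model and had 501 spliced bases against 630 in sperm. It began 112 bases after the RefSeq start and ended 8 bases before the annotated end. Its first base was coding base 6 of 324, so the annotated start codon was not part of it. The first 30 coding bases, chr16:10791969-10791998 on the minus strand, are shown with the 5 bases missing from the 1-cell model in capitals.
Prm2 start of the coding sequence: ATGGTtcgctaccgaatgaggagccccagt
The next ATG in the reading frame begins at coding base 16, which is codon 6.

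Other sperm RNAs were compared in the same 1-cell libraries. TPM is a share of each library, so a percentage of a sperm TPM does not measure how much sperm RNA an embryo held. Prm2 in 1-cell replicate 1 was at 0.168% of its TPM in sperm replicate 1 and at 1.75% of that in sperm replicate 2, and in 1-cell replicate 2 at 0.00635% and 0.0662%. For Prm3 these shares were 1.14% and 6.13%, and then 0.146% and 0.784%. Of the 14 sperm markers 9 were listed at 0 in this library and 8 in replicate 2. The 5 markers above 0 in replicate 1 were Odf2, Gapdhs, Oaz3, Ldhc and Tssk6. Odf2, an outer dense fibre protein that is not confined to sperm, was at 28.99 and 18.4 TPM in 1-cell embryos and 14.8 and 39.4 TPM in oocytes. Gapdhs, the glycolytic enzyme of the sperm tail, was at 4.21 and 0.615 TPM in 1-cell embryos and at 0.276 and 1.32 TPM in oocytes. The other 3 were at most 0.568 TPM in either 1-cell library.

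In the later embryo no step was called for any member, and no member had an unadjusted p under 0.05 at any of these steps (limma). From 1-cell to 2-cell, where 26.8% of genes were called, the smallest unadjusted p among the 5 was 0.113, for Tnp1. Without 2-cell replicate 1, in which Tnp1 was listed at 0, Tnp1 was called. Of all genes, 1.31% were called between 2-cell and 4-cell, 1.12% between 4-cell and 8-cell, and 2.16% between 8-cell embryos and blastocysts. These shares depend on the libraries fitted, since fits of only the 4 libraries of a step called 0 genes for the step to the 2-cell stage and 2493 for the step to the 8-cell stage, against 2872 and 120 in the fit of all 14. The smallest p at the last step was 0.0896, for Prm3.

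Single libraries carried the higher of these low values. Tnp1 was listed at 0 and 5.32 TPM in 2-cell embryos, and at 0 in both blastocyst libraries. Prm1 was at 0 and 4.37 TPM at the 2-cell stage and at 1.59 and 5.96 TPM at the 8-cell stage. The study states more reads for 2-cell replicate 2 than for replicate 1, and 9822 against 8721 genes reached 1 TPM in them. The part of sequencing depth in these 2-cell values was not tested. Tnp2 was at 0 and 4.85 TPM at the 8-cell stage. Prm1 and Tnp2 were thus both highest in 8-cell replicate 2, and Tnp1 in 2-cell replicate 2. The sperm markers Odf1, Spata18 and Spata3 were also highest outside sperm in 8-cell replicate 2, at 5.03, 0.509 and 0.0724 TPM. The other sperm markers were highest in other libraries. Prm2 was at 0.132 and 0 TPM in blastocysts. Prm3 alone was listed above 0 in all 12 libraries and was highest in both blastocyst libraries, at 4.10 and 4.44 TPM, with little between the replicates.

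**Figure D5:**
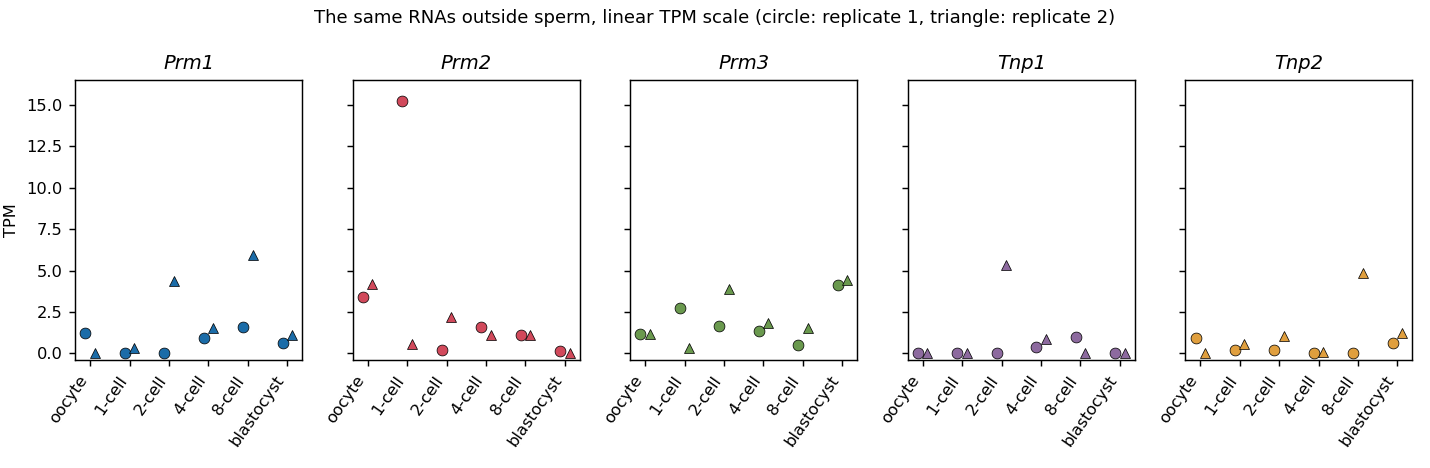
TPM of each gene (vertical axis, linear) in the 12 oocyte and embryo libraries by stage, 1 point per library. Prm2 in 1-cell replicate 1 stands highest at 15.2 TPM, and the 2 blastocyst values of Prm3 lie at 4.10 and 4.44 TPM.

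The value in 8-cell replicate 2 was also set against sperm replicate 2, in which Prm1 and Tnp2 were highest. Prm1 was at 0.0968%, Tnp2 at 0.0765%, Prm2 at 0.131% and Prm3 at 3.40% of that sperm library, and Tnp1 was listed at 0. Over the 14 sperm markers this share ran from 0, in 3 of them, to 14.3%, with a median of 0.125%. Against sperm replicate 1 the shares were 0.324% for Prm1, 0.198% for Tnp2, 0.0126% for Prm2 and 0.631% for Prm3, and the median of the markers was 0.0488%. These percentages, too, compare shares of different libraries and do not measure how much sperm RNA an embryo held.

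The genes with the most similar pattern were found by Euclidean distance of log2(TPM + 1) over the 14 libraries. Prm1 and Tnp2 were each other's nearest gene (distance 2.55). Next to Prm1 came Gm3417 (3.52) and Odf1 (3.54), an outer dense fibre protein of the sperm tail, and next to Tnp2 came Odf1 (2.60) and 1700003F12Rik (2.86). Odf1 stood at 485 and 7373 TPM in sperm, higher in replicate 2 as Prm1 and Tnp2 were.

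Nearest to Prm2 were C1qb (3.76), a complement component made by macrophages, Ptgds (4.78), a prostaglandin D synthase, and Lyz2 (5.16). C1qb was at 1458 and 424 TPM and Ptgds at 1125 and 176 TPM in sperm. Lyz2 is one of the leukocyte markers above. Nearest to Prm3 were Rbakdn (2.51), Fos (2.66), an immediate early transcription factor, and Smim24 (2.81). Nearest to Tnp1 were its neighbour 1700027A15Rik (1.78), Meig1 (1.87), which is needed for spermiogenesis, and Cmtm2a (1.95).

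Genes of the same programme were read from lists, with the sperm against oocyte comparison as the measure. In that comparison 36.2% of all genes were called higher and 17.4% lower in sperm, and the median over all genes was 0.90. Of 11 chromatin proteins of late spermatids, 7 had a transcript, 5 were higher in sperm, 2 were lower, and the median was 3.92. That median is the value of a gene listed at 0 in both oocyte libraries, as 3 of the 7 were, and so depends on the pseudocount. Outside sperm, none of the 5 genes called higher reached 1 TPM in 2 libraries. They passed the filter only through sperm, so their calls add no support of their own. Hmgb4, a testis high-mobility-group protein, stood at 137 and 21.7 TPM in sperm and H1fnt, a linker histone variant, at 62.0 and 36.2 TPM. Both were called, but they were listed at 0 in both oocyte libraries and are given no difference. Hils1, another linker histone variant, was higher by 4.27 ± 0.69, at 56.4 and 6.00 TPM in sperm against 0.0815 and 0 TPM in oocytes. Brdt, a bromodomain protein of the testis, was lower by 6.72 ± 0.80, at 26.7 and 14.6 TPM in sperm and 3517 and 1361 TPM in oocytes.

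Among 7 transcription factors of haploid germ cells, 5 had a transcript, 4 were higher in sperm and 0 lower, with a median of 2.39. Crem, the activator through which cyclic-AMP response elements of spermatid genes are read, was higher by 4.46 ± 0.78, at 29.7 and 48.5 TPM in sperm. Tbpl1, a relative of the TATA-binding protein, was higher by 3.83 ± 0.92. Rfx2, which differed by 2.39 ± 0.77, and Fhl5, a coactivator of Crem, which differed by 1.83 ± 0.60, were called with TPM as deposited, but quantile normalization ended both calls (adjusted p = 0.0997 and 0.503). Fhl5 also passed the filter only through sperm, so its call adds no support of its own.

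Of 7 genes for storing and translating protamine mRNA, 4 were higher in sperm, 0 were lower, and the median was 2.81. Ddx25, an RNA helicase of round spermatids, was higher by 5.17 ± 0.75, Tarbp2, a double-stranded RNA binding protein, by 3.74 ± 0.77, and Ybx2, which holds protamine mRNA back from translation, by 2.81 ± 0.83. Papolb, a cytoplasmic poly(A) polymerase of the testis, was called at 3.12 and 20.1 TPM in sperm and was listed at 0 in both oocyte libraries. Ybx2 was not a sperm RNA alone, at 70.2 and 366 TPM in sperm and 105 and 59.1 TPM in 1-cell embryos. Nor was Tarbp2, at 42.5 and 42.2 TPM in sperm and 85.3 TPM in 8-cell replicate 2. Papolb likewise stood at 29.2 and 10.9 TPM in the 2-cell libraries.

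Of 4 genes for protamine phosphorylation, 1 was higher and 2 lower, with a median of -2.02. Camk4, a calmodulin-dependent kinase that phosphorylates Prm2, was higher by 4.31 ± 0.77, whereas the arginine-serine protein kinases Srpk1 and Srpk2 were lower by 3.23 ± 0.84 and 3.14 ± 0.77. These 2 kinases were at 182 and 204 TPM (Srpk1) and at 659 and 1280 TPM (Srpk2) in oocytes. Camk4 passed the filter only through sperm, so its call adds no support of its own.

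Genes for the egg's side of the exchange were read at the RNA level in the same way. Of 12 genes for protamine removal and histone loading, 0 were higher and 7 lower in sperm, and the median was -3.03. Quantile normalization ended 1 of these calls, that of the H3.3 gene H3f3b (adjusted p = 0.0735). H1foo, the oocyte linker histone, was lower by 12.27 ± 1.12, at 1.95 and 1.20 TPM in sperm against 12322 and 12737 TPM in oocytes. The histone chaperones Asf1b and Asf1a were lower by 7.49 ± 0.89 and 4.77 ± 1.15, and Ubn1, a partner of the H3.3 chaperone Hira, by 3.58 ± 0.81. Hira itself was at 0.595 and 0.487 TPM in sperm and at 0.229 and 0.244 TPM in oocytes. None of the genes in these lists was called between oocyte and 1-cell, a step at which only 0.14% of all tested genes were called.

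Genes beside the members were read as well. Within 100 kb of the chromosome 16 cluster lay 8 other annotated genes, 4 with a merged transcript, and 1 such gene lay near Tnp1. 1700027A15Rik, annotated antisense to Tnp1, stood at 317 and 28.1 TPM in sperm, was listed at 0 in both oocyte libraries and was called (limma, adjusted p = 8.49e-06). Its merged transcript did not overlap that of Tnp1. Socs1, a cytokine signalling inhibitor 2400 bases from Tnp2, ranged from 1.75 TPM in an 8-cell library to 545 TPM in a 2-cell library and differed by -1.58 ± 1.41 between sperm and oocyte (limma, adjusted p = 0.355). Gm10343, a pseudogene within the span of a longer annotated transcript of Prm1, was higher by 2.30 ± 0.78 in sperm and reached 43.6 TPM at the 2-cell stage. Clec16a was lower in sperm by 4.26 ± 0.81, and Rmi2, which differed by -0.35 ± 1.16, was not called. Beside the 4 genes of the cluster, which were all called higher in sperm than in oocytes, Gm10343 was thus called higher, Clec16a lower, and Socs1 and Rmi2 were not called.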

How the data were processed

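Sperm, oocytes and 5 embryo stages of mouse were measured in 14 short-read and 7 long-read libraries. Per the labels and the study's methods, cDNA was amplified by Smart-seq2, long-read transcripts were placed on mm10 and merged over the stages, and short reads were quantified on them with Salmon. The submitters' processing notes also name GSNAP, STAR and Cufflinks. The authors deposited TPM per transcript, over the merged set and over each stage's own set, and these values were used as deposited, with no read counts.

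The 22612 merged transcripts were assigned to GENCODE vM21 genes by largest same-strand exon overlap (18333 had a gene). Gene TPM were tested with limma 3.58.1 in R 4.3.3 on log2(TPM + 1), which understates changes of low genes, with stage as the only term, over the 10735 genes with at least 1 TPM in at least 2 libraries, and Benjamini-Hochberg adjustment per comparison. The fit was tested on simulated data. Replicate numbers follow the sample titles, which number the 8-cell libraries the other way round from their deposited tables.

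Named were the 5 members, the 3 genes nearest to each, up to 4 called genes per list with the largest difference between sperm and oocyte, marker sums with their leading genes, and genes within 100 kb with a merged transcript. Odf2, Gapdhs, Hira and H3f3b were named after their values were seen, as were the single markers Crisp1, Lyz2, Ptprc, Hba-a1, Ptgs2, Dazl, Sycp1 and Ddx4, and the promoter patterns were picked by hand. Members and lists were chosen with earlier results of these data known. Alternatives covered the pseudocount, filters, normalization, libraries fitted, the replicate number, the assignment rule and each library left out.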

Additional observations from a re-analysis of the deposited data

Results flagged for a closer look

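The Prm2 model in the 1-cell long-read pool stood outside the comparisons, which used the merged transcripts. Quantified on the 1-cell pool's own models, it was at 14.7 TPM in 1-cell replicate 1 and at 0.569 TPM in replicate 2. It was singled out as the only long-read model of a member outside the sperm pool. The oocyte pool held no model at Prm2, but both oocyte short-read libraries listed Prm2, at 3.40 and 4.16 TPM on the merged transcripts. The higher 1-cell value rests on 1 library of 2, and the long-read pool mixed both replicates.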

How the results depend on the processing

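All 5 genes stayed higher in sperm than in oocytes, 1-cell embryos and the mean of the other stages under every alternative run, with adjusted p of at most 0.00963. Their differences moved most when a sperm library was left out or a pseudocount of 0.1 was used, for example between 7.51 and 10.89 for Prm2 against oocytes. No alternative called a member at an embryo step, except that 1 member, Tnp1, was called from 1-cell to 2-cell without 2-cell replicate 1, so this count ran from 0 to 1 over the left-out libraries. The oocyte to 1-cell difference of Prm2, 0.08, changed sign with a pseudocount of 0.1 (-0.26) and with quantile normalization (-0.58), and ran from -1.60 to 1.77 over the left-out libraries. Without either sperm library the exact permutation p rose from 0.011 to 0.0769 for each gene, since 1 library against 12 cannot give less, and without any other library it was 0.0128. The members' share of sperm TPM, 1.36%, was 1.30% on the sperm pool's own models.

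Counts over all genes at embryo steps varied widely over the alternatives: 0 to 69 from oocyte to 1-cell (main count 15), 0 to 960 from 2-cell to 4-cell (141), 0 to 2493 from 4-cell to 8-cell (120), 0 to 417 from 8-cell to blastocyst (232), and 0 from 1-cell to 2-cell (2872) in the fit of only those 4 libraries. The cause was not tested. Replicate numbers were not used to pair the samples in the main fit. The differences between replicates correlated between -0.54 and 0.47 over 21 pairs of stages, 8 of them above 0.1. Whether stages shared batches under other numbers was not tested. With the replicate block 5 of 5 members were still called in each sperm comparison and 0 at each embryo step, while the counts over all genes fell to 1 from oocyte to 1-cell and to 70 from 2-cell to 4-cell.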
